A study of Mus musculus with 12 samples.

Results

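The calcineurin and NFAT pathway was followed through 9 genes: the calcineurin subunit genes Ppp3ca, Ppp3cb and Ppp3r1, the calcineurin inhibitor gene Rcan1, the kinase gene Camk1, and the NFAT factor genes Nfatc1, Nfatc2, Nfatc3 and Nfat5. The 9 genes were taken by symbol from the 25230 genes of the deposited table, and all 9 were among the 11283 genes tested. The cells were mouse macrophages, obtained by keeping marrow of femur and tibia for 8 days with 50 ng/ml of the growth factor M-CSF, and their polyadenylated RNA was sequenced. The 12 libraries fell into 4 groups of 3: Piezo1 KO with Candida albicans, Piezo1 KO with PBS, WT with Candida albicans, and WT with PBS. Candida albicans is a yeast that can switch to hyphae and infect people. Sources used here do not give the dose and duration of the fungus, the knockout allele, any Cre driver or the age of the mice. The KO PBS libraries carry DMSO in their titles and PBS in their treatment label, and the label was followed. Whether the 3 libraries of a group came from separate animals or cultures is not labelled, so the p-values describe the spread among libraries, which may be technical.

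Piezo1 is a mechanically gated channel that lets calcium and other cations into the cell. A rise in cytosolic calcium loads calmodulin, which activates the phosphatase calcineurin, a dimer of a catalytic and a calcium-binding regulatory subunit. Calcineurin removes phosphates from NFATc proteins, which then enter the nucleus and switch on genes until kinases such as GSK3, DYRK and casein kinase 1 send them back out. Rcan1 is both an inhibitor of calcineurin and one of its NFAT targets. NFAT5 shares the DNA-binding domain of the family, lacks the calcineurin docking site and is best known for the response to osmotic stress. This regulation acts on proteins, and transcript levels do not show whether calcineurin was active or where NFAT proteins were.

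In GRCm38.p6 the genes lie at 3:136669714-136937727 (Ppp3ca, gene 19055), 14:20499364-20546573 (Ppp3cb, gene 19056), 11:17159298-17200380 (Ppp3r1, gene 19058), 16:92391951-92466169 (Rcan1, gene 54720) and 6:113334124-113343922 (Camk1, gene 52163). The NFAT genes lie at 2:168476410-168601657 (Nfatc2, gene 18019), 8:106058818-106130537 (Nfatc3, gene 18021) and 8:107293435-107379517 (Nfat5, gene 54446), and Nfatc1 is gene 18018. Piezo1 lies on the same chromosome as Nfatc3 and Nfat5, at 8:122481698-122551329. What part this shared chromosome has in their values was not tested. All values are given per gene, and how reads were counted is not stated in the sources used. The 3' end of Camk1 overlaps Ogg1, a DNA repair gene that reached at most 16.2 TPM, and sources used here do not state the strand setting of the counting, so reads in that overlap are uncertain.

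Rcan1 has 2 promoters in the RefSeq table of GRCm38.p6, each given from 250 bases before to 50 bases after an annotated start. They are shown because Rcan1 was the member called in both responses to the fungus. Capitals mark GGAAA or TTTCC, the core letters of an NFAT site on either strand, and TGANTCA, the AP-1 letters, which read the same on both strands. The upstream start, at chr16:92466120-92466419 on the minus strand, had neither motif and a GC content of 67.7%. The internal start, at chr16:92400029-92400328 on the minus strand, had 3 GGAAA or TTTCC matches, at -227, -193 and -163 from the start, 1 TGANTCA match and a GC content of 56.3%.
Rcan1 upstream start: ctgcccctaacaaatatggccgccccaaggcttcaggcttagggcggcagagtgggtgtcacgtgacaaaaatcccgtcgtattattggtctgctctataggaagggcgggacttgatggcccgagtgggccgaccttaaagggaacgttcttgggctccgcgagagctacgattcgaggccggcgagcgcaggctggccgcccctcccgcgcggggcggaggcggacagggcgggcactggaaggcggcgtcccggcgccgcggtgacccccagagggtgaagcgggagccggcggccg
Rcan1 internal start: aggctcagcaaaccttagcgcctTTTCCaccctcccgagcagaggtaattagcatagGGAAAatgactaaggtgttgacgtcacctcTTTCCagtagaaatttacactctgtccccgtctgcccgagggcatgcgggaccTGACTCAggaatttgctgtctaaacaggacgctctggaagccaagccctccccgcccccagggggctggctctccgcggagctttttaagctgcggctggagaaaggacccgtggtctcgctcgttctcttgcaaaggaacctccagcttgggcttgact
Of 32851 promoters of this length, 61.3% held at least 1 GGAAA or TTTCC, 9.42% held at least 3, and 7.81% held TGANTCA. Matches of this kind are a description of the letters. In all, 7 of the 9 members had an entry, with 10 promoters. The other counts of GGAAA or TTTCC were 3 and 1 for the Nfatc2 starts, 1 and 0 for Nfatc3, 2 for Nfat5, 4 for Ppp3cb, 0 for Ppp3r1 and 0 for Camk1, and none of these 8 promoters held TGANTCA. Gene-level values do not show which Rcan1 start was used.

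The libraries held 16400119 to 25741091 reads in genes, and the members had from 475 reads (Nfatc2, in 1 KO PBS library) to 3621 (Nfat5, in 1 WT C. albicans library). Piezo1 itself was at 64.9 ± 0.756 TPM in KO with C. albicans, 65.4 ± 2.72 in KO with PBS, 137 ± 8.68 in WT with C. albicans and 135 ± 4.69 in WT with PBS (SD, n = 3 each), so 47.4% and 48.6% of its WT level was left in the libraries labelled KO. WT C. albicans replicate 1 stood apart: comparing its reads with either of its replicates gave a chi-square of 16.2 or 15.3 per degree of freedom, where the other 10 replicate pairs gave 1.49 to 4.597. All 7 macrophage markers were detected, with summed levels of 15146 to 15287 TPM in KO with C. albicans, 14775 to 15035 in KO with PBS, 21073 to 22213 in WT with C. albicans and 25117 to 25704 in WT with PBS. Lyz2, encoding lysozyme, is most of that sum, and its log2 fold change for KO over WT was -0.78 with C. albicans (adjusted p = 6.9e-09) and -1.11 with PBS (adjusted p = 1.2e-10). The lysosomal gene Cd68 moved the other way, at 0.20 with C. albicans (adjusted p = 3.3e-04) and 0.31 with PBS (adjusted p = 2.7e-05), and Csf1r, encoding the M-CSF receptor, was at -0.07 and -0.19 (adjusted p = 0.0450 and 1.95e-04). In the same order, Itgam was at -0.34 and -0.80 (adjusted p = 7.0e-06 and 2.1e-08) and Adgre1 at -0.17 and -0.33 (adjusted p = 0.0134 and 3.6e-04). Fcgr1 was at 0.30 and -0.10 (adjusted p = 0.0012 and 0.225) and Mertk at 0.46 and -0.30 (adjusted p = 0.0247 and 0.143). The markers thus differed between genotypes in both directions. Among 6 T cell markers in the file Cd3e had 0 reads, and Cd3d, Cd3g and Cd8a stayed at or under 0.469 TPM. Lck had 0.183 to 1.30 TPM and Cd4 had 7.28 to 17.3 TPM. The list's sum was thus nearly all Cd4, at 10.7 to 12.6 TPM in KO with C. albicans, 8.03 to 9.40 in KO with PBS, 12.8 to 16.5 in WT with C. albicans and 17.0 to 18.5 in WT with PBS. Of 7 neutrophil and progenitor markers 3 had 0 reads, among them Ly6g and S100a9, and only S100a8 reached 1 TPM. The neutrophil sum was 3.22 to 5.24 TPM in KO with C. albicans, 4.68 to 6.502 in KO with PBS, 6.02 to 8.30 in WT with C. albicans and 1.65 to 3.63 in WT with PBS. The B cell sum was 1.08 to 1.90 TPM in KO with C. albicans, 1.44 to 1.86 in KO with PBS, 0.241 to 0.876 in WT with C. albicans and 2.86 to 4.18 in WT with PBS. Dendritic cell sums stayed at or under 1.04 TPM and stromal and osteoclast sums at or under 3.54 TPM. What part such markers have in the results was not tested, and in bulk libraries fewer cells of a type and less RNA per cell cannot be told apart.

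TPM is a unit corrected for gene length and library size, so levels can be set between genes. In KO with C. albicans, Camk1 was the most abundant of the 9 at 179 TPM, followed by Rcan1 at 98.5, Ppp3r1 at 89.3, Ppp3ca at 58.2, Ppp3cb at 26.3, Nfatc3 at 16.3, Nfat5 at 12.4, Nfatc1 at 12.2 and Nfatc2 at 6.62. Regulators and calcineurin subunits thus stood above every NFAT gene in that group. Nfatc2 was also the lowest member in the other 3 groups, at 6.90 TPM in KO with PBS, 7.68 in WT with C. albicans and 9.95 in WT with PBS. Nfatc4, the remaining calcineurin-dependent NFAT gene, was listed at 0 in 3 groups and at no more than 0.0187 TPM in KO with C. albicans.

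**Figure D1:**
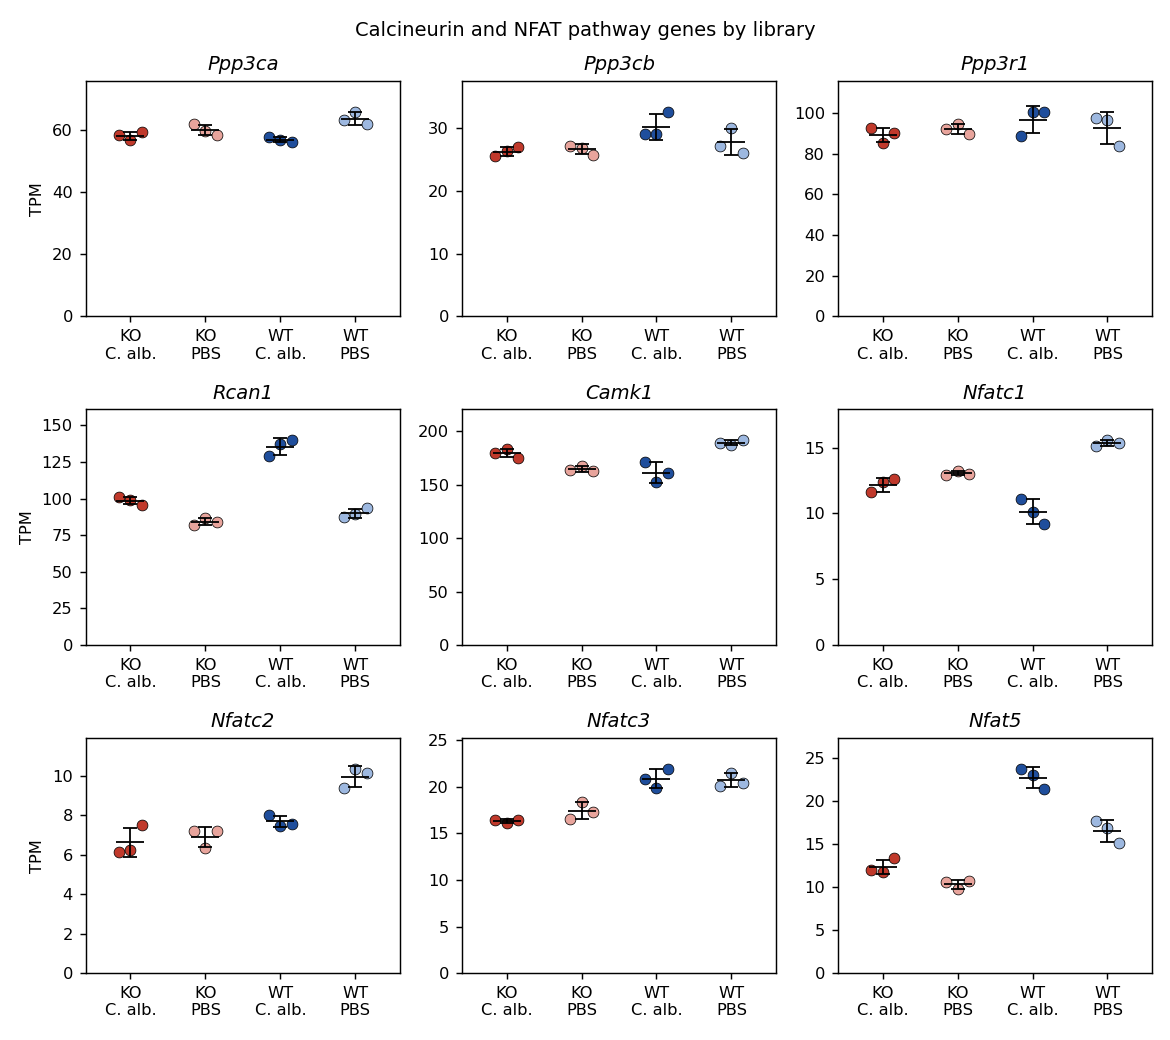
Level of each of the 9 genes in TPM (vertical axes, from 0) in every library, with 3 points, mean and SD per group (KO C. albicans, KO PBS, WT C. albicans, WT PBS). Rcan1 stands highest in WT with C. albicans (mean 136 TPM), Nfatc1 lowest there (10.1 TPM), and all Nfat5 points of KO lie below all Nfat5 points of WT.

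Ppp3ca, encoding the catalytic subunit calcineurin A alpha, had 58.3, 56.9 and 59.4 TPM in KO with C. albicans, 61.8, 59.8 and 58.3 in KO with PBS, 57.7, 56.8 and 56.3 in WT with C. albicans, and 63.3, 65.9 and 62.0 in WT with PBS. The 3 WT PBS libraries were above all others, and the remaining groups overlapped in the order of their means. Ppp3cb, encoding the catalytic subunit A beta, had 25.5, 26.3 and 26.9 TPM in KO with C. albicans, 27.2, 26.9 and 25.7 in KO with PBS, 29.0, 29.0 and 32.6 in WT with C. albicans, and 27.2, 30.0 and 26.0 in WT with PBS. Its WT C. albicans libraries lay above those of KO with C. albicans and overlapped WT with PBS. Ppp3r1, encoding the calcium-binding subunit B, had 92.5, 85.4 and 90.1 TPM in KO with C. albicans, 92.4, 94.8 and 89.9 in KO with PBS, 89.0, 101 and 100.3 in WT with C. albicans, and 97.8, 96.4 and 83.8 in WT with PBS. All neighbouring groups of Ppp3r1 overlapped.

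The catalytic genes together, with the third catalytic gene Ppp3cc, summed to 90.3 ± 1.91 TPM in KO with C. albicans, 91.9 ± 2.38 in KO with PBS, 94.5 ± 1.58 in WT with C. albicans and 97.8 ± 4.22 in WT with PBS (SD, n = 3 each). Ppp3ca made up 64.4% of that sum in KO with C. albicans, 65.3% in KO with PBS, 60.3% in WT with C. albicans and 65.2% in WT with PBS. Ppp3cc was the smallest share, between 5.73% in KO with PBS and 7.78% in WT with C. albicans. Within a library, Ppp3ca was 2.22 ± 0.0667 times Ppp3cb in KO with C. albicans and 2.25 ± 0.0262 times in KO with PBS, against 1.89 ± 0.145 times in WT with C. albicans and 2.30 ± 0.0982 times in WT with PBS.

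Rcan1 had 101, 98.8 and 95.9 TPM in KO with C. albicans, 81.8, 86.4 and 84.0 in KO with PBS, 129, 138 and 139.8 in WT with C. albicans, and 87.3, 89.6 and 93.3 in WT with PBS. The 4 groups did not overlap, with WT C. albicans highest, then KO C. albicans, WT PBS and KO PBS. Camk1, encoding a kinase activated by calcium and calmodulin, had 179.7, 183 and 175 TPM in KO with C. albicans, 164, 168 and 163 in KO with PBS, 171, 152 and 161 in WT with C. albicans, and 189, 187 and 192 in WT with PBS. Its WT PBS libraries were highest, those of KO with C. albicans came next, and the groups below them overlapped.

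Nfatc1, encoding the factor best known for osteoclast differentiation, had 11.6, 12.4 and 12.6 TPM in KO with C. albicans, 12.9, 13.2 and 13.02 in KO with PBS, 11.1, 10.1 and 9.21 in WT with C. albicans, and 15.1, 15.6 and 15.4 in WT with PBS. No 2 of its groups overlapped, and both WT groups lay outside the range of the KO groups, on opposite sides. Nfatc2 had 6.15, 6.23 and 7.48 TPM in KO with C. albicans, 7.18, 6.32 and 7.19 in KO with PBS, 8.01, 7.47 and 7.57 in WT with C. albicans, and 9.36, 10.3 and 10.1 in WT with PBS. Its WT PBS libraries were highest and the KO groups overlapped. The T cell marker sum, nearly all Cd4, was also highest in WT with PBS, and Cd3e was at 0 in every library. Its part in the Nfatc2 values was not tested. The small B cell marker sum was highest in WT with PBS and lowest in WT with C. albicans, as Nfatc1 was. What part B cell RNA has in the Nfatc1 values was not tested.

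Nfatc3 had 16.4, 16.1 and 16.5 TPM in KO with C. albicans, 16.6, 18.4 and 17.2 in KO with PBS, 20.8, 19.9 and 21.9 in WT with C. albicans, and 20.1, 21.5 and 20.4 in WT with PBS. The 6 KO libraries were below the 6 WT libraries, and within WT the treatments overlapped. Nfat5 had 11.96, 11.8 and 13.3 TPM in KO with C. albicans, 10.6, 9.75 and 10.7 in KO with PBS, 23.7, 22.9 and 21.3 in WT with C. albicans, and 17.7, 16.8 and 15.2 in WT with PBS. No 2 of its groups overlapped, and in each genotype the libraries with fungus were above those with PBS.

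In KO macrophages the response to C. albicans was limited to Rcan1 among the 9 genes, at an adjusted p under 0.05 (limma on log2(TPM + 1), Benjamini-Hochberg over all genes tested). Rcan1 rose to 117% of its KO PBS level, which is 0.23 on the log2 scale (SE 0.04, adjusted p = 0.00482). Over all genes 7.08% were called in this comparison, 3.94% higher and 3.14% lower, so 1 of 9 is near the background. The median log2 fold change of the 9 was -0.04, the same as that of all genes, -0.04. Nfat5, at 0.24 (SE 0.07, adjusted p = 0.0643), and Camk1, at 0.12 (SE 0.04, adjusted p = 0.0852), did not pass. The groups did not overlap for 3 members with higher values and 2 with lower ones (Nfatc1 and Nfatc3), where 11.9% and 21.1% of all genes showed the same. Both passed with median-ratio factors, a scaling that lowers the weight of the most abundant transcripts, with adjusted p = 0.0238 for Nfat5 and 0.0171 for Camk1. Without WT C. albicans replicate 1, which enters this comparison only through the shared estimate of the spread, the values were 0.0432 for Nfat5 and 0.0175 for Camk1. The remaining 6 members had log2 fold changes between -0.09 (Nfatc1, adjusted p = 0.419) and -0.02 (Ppp3cb, adjusted p = 0.891).

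In WT macrophages, C. albicans moved 6 of the 9 genes. Rcan1 and Nfat5 rose, and Nfatc1, Nfatc2, Camk1 and Ppp3ca fell. Over all genes 44.4% were called, 16.1% higher and 28.3% lower, so 6 of 9 stands above the background share in a list too short to read more from it. The groups of all 6 did not overlap, as for 18.3% of all genes with higher and 32.6% with lower values. The median of the 9 was 0.01, against -0.07 for all genes. The WT PBS libraries also serve in the genotype comparison with PBS, and each of the 4 comparisons between groups shares libraries with others, so their values are given side by side and not combined.

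Rcan1 reached 150% of its WT PBS level in WT with C. albicans, which is 0.58 as log2 fold change (SE 0.04, adjusted p = 2.4e-07). Nfat5 reached 137%, at 0.43 (SE 0.07, adjusted p = 3.4e-04). Nfatc1 was at 65.9% of its PBS level, at -0.56 (SE 0.06, adjusted p = 2.0e-05), and Nfatc2 at 77.2%, at -0.34 (SE 0.08, adjusted p = 0.00522). Camk1 was at 85.3%, at -0.23 (SE 0.04, adjusted p = 5.2e-04). These 5 calls held in each of 22 alternative fits, including the one without WT C. albicans replicate 1. Ppp3ca, at 89.4% and -0.16 (SE 0.04, adjusted p = 0.00494), was not called with median-ratio factors (-0.08, adjusted p = 0.0852). Nfatc3 at 0.01, Ppp3r1 at 0.06 and Ppp3cb at 0.12 (adjusted p = 0.130) did not pass, and Ppp3cb passed with median-ratio factors (0.20, adjusted p = 0.0236).

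The authors' deposited table holds 1 comparison, which matched WT with C. albicans over WT with PBS to a median absolute difference of 0.00102 in log2 fold change over 10034 genes. In the authors' deposited table Rcan1 was at 0.67, Nfat5 at 0.54, Nfatc1 at -0.52, Nfatc2 at -0.29 and Camk1 at -0.15 (adjusted p = 0.00794). The same deposited table by the authors gave Ppp3cb at 0.21 (adjusted p = 0.0154) and Ppp3ca at -0.08 (adjusted p = 0.157). Both catalytic genes therefore fell on the other side of the threshold from the TPM fit, as they did with median-ratio factors.

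**Figure D2:**
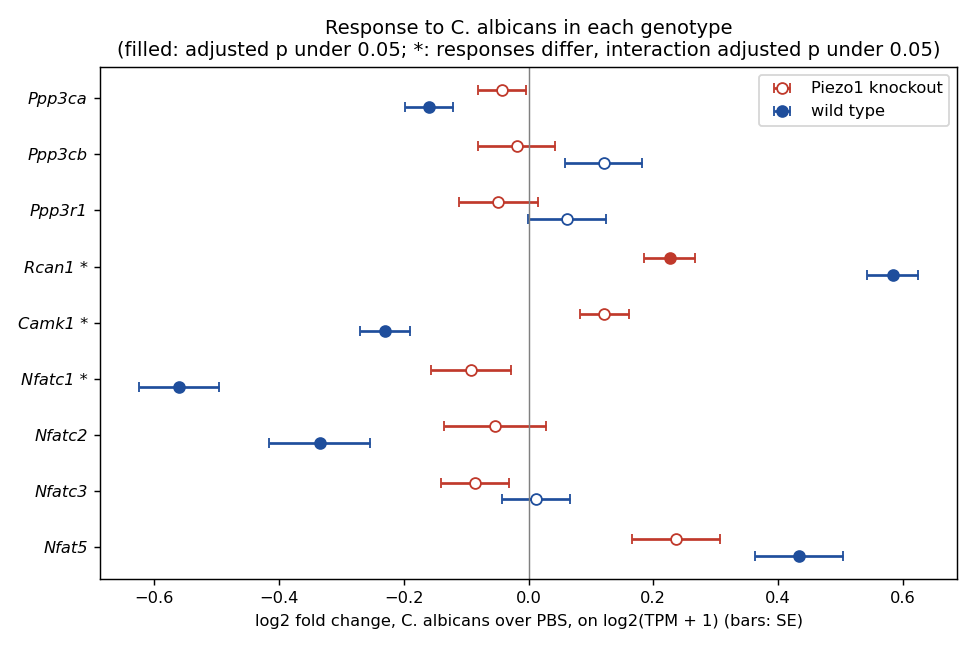
Log2 fold change of C. albicans over PBS (horizontal axis, log2(TPM + 1) scale, bars SE) for each gene in Piezo1 knockout (red) and wild type (blue), filled where the adjusted p was under 0.05. Asterisks mark Rcan1, Camk1 and Nfatc1, whose responses differed between the genotypes.

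The response itself differed between genotypes for 3 genes, tested as the KO response minus the WT response. Nfatc1 differed by 0.47 (SE 0.09, adjusted p = 0.00477), with -0.09 in KO and -0.56 in WT. Camk1 differed by 0.35 (SE 0.06, adjusted p = 0.00137), with 0.12 in KO and -0.23 in WT. Rcan1 differed by -0.36 (SE 0.06, adjusted p = 0.00162), with 0.23 in KO and 0.58 in WT. Over all genes 13.9% were called, 7.52% higher and 6.33% lower, against 3 of the 9. These 3 calls held in 21 alternative fits each, with adjusted p from 4.03e-04 to 0.0156 for Nfatc1, from 4.7e-05 to 0.00774 for Camk1 and from 1.9e-04 to 0.00700 for Rcan1. Without WT C. albicans replicate 1 the differences were 0.53, 0.39 and -0.39, in the same order.

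For the other 6 genes a difference in response was not shown. Nfat5 had a difference of -0.20 (SE 0.10, adjusted p = 0.221), which passed only in the voom fit of reads recovered from the TPM (adjusted p = 0.0477). Nfatc2 had 0.28 (SE 0.12, adjusted p = 0.129), although it was called in WT and not in KO. Ppp3ca had 0.12 (adjusted p = 0.184), Ppp3cb -0.14 (adjusted p = 0.329), Ppp3r1 -0.11 (adjusted p = 0.461) and Nfatc3 -0.10 (adjusted p = 0.446).

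With C. albicans present, KO macrophages had less Nfat5, Rcan1, Nfatc3 and Ppp3cb and more Nfatc1 and Camk1 than WT macrophages. Over all genes 39.9% were called, 12.4% higher and 27.5% lower, against 2 higher and 4 lower of the 9. The groups of these 6 did not overlap, as for 16% of all genes with higher and 33.3% with lower values. The median of the 9 was -0.19, against -0.05 for all genes. Nfat5 was at 54.5% of its WT level (log2 fold change -0.83, SE 0.07, adjusted p = 2.5e-06) and Rcan1 at 72.7% (-0.46, SE 0.04, adjusted p = 3.8e-06). Nfatc3 was at 78.2% (-0.34, SE 0.05, adjusted p = 3.7e-04). Nfat5 and Nfatc3 share a chromosome with Piezo1, and any part of this in their values was not tested. Nfatc1 was at 120% (0.25, SE 0.06, adjusted p = 0.00801) and Camk1 at 111% (0.15, SE 0.04, adjusted p = 0.00799). Ppp3cb, at 87.0% (-0.19, SE 0.06, adjusted p = 0.0240), lost its call in 7 of 22 alternative fits, among them the one with median-ratio factors (-0.14, adjusted p = 0.101) and those without WT C. albicans replicate 3 or KO C. albicans replicate 1 or 2. Nfatc2 at -0.19 (adjusted p = 0.0792), Ppp3r1 at -0.11 (adjusted p = 0.183) and Ppp3ca at 0.03 did not pass. Nfatc2 was called lower without KO C. albicans replicate 3 (-0.27, adjusted p = 0.0209), and with the length trend removed it was at 0.11 (adjusted p = 0.298). Without WT C. albicans replicate 1, Ppp3r1 was called lower (-0.17, adjusted p = 0.0387).

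With PBS alone, 5 of the 9 genes were lower in KO and 0 were higher. Over all genes 32.3% were called, 26.1% lower and 6.14% higher, and the median of the 9 was -0.20, against -0.08 for all genes. All KO libraries were below all WT libraries for these 5, Ppp3ca and Rcan1, 7 of the 9, as for 36.1% of all genes. Nfat5 was at 62.5% of its WT level (log2 fold change -0.63, SE 0.07, adjusted p = 4.7e-05) and Nfatc2 at 69.3% (-0.47, SE 0.08, adjusted p = 8.5e-04). Nfatc3 was at 84.2% (-0.24, SE 0.05, adjusted p = 0.00536), Nfatc1 at 85% (-0.22, SE 0.06, adjusted p = 0.0199) and Camk1 at 87.1% (-0.20, SE 0.04, adjusted p = 0.00231). All 4 NFAT genes measured were thus lower, while Ppp3ca at -0.09 (adjusted p = 0.110), Ppp3cb at -0.05, Ppp3r1 at -0.0013 and Rcan1 at -0.10 (adjusted p = 0.0894) did not pass. With median-ratio factors only Nfat5 and Nfatc2 were called, and Nfatc3 (-0.15, adjusted p = 0.0705), Nfatc1 (-0.13, adjusted p = 0.123) and Camk1 (-0.10, adjusted p = 0.0545) were not. Nfatc1 also lost its call without WT PBS replicate 2 or KO PBS replicate 1 or 3, and Rcan1 was called lower without WT C. albicans replicate 1 (adjusted p = 0.0432).

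Gene length moved with the genotype difference across all genes. The Spearman correlation of the KO over WT log2 fold change with gene length was -0.40 with C. albicans and -0.462 with PBS over 11283 genes, which are not independent replicates. The longest 10% of genes had a median of -0.30 with C. albicans and -0.28 with PBS. In contrast, that correlation was -0.0369 for the KO response and 0.0176 for the WT response. The NFAT genes are long: 99.7% of tested genes were shorter than Nfat5, 96.0% than Nfatc2, 94.1% than Nfatc1 and 87.1% than Nfatc3. Ppp3ca was longer than 76.7% of tested genes, Ppp3cb than 65.3%, Ppp3r1 than 46.6%, Rcan1 than 40.6% and Camk1 than 17.3%.

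With the length trend removed within each library, Nfat5 was still lower in KO, by -0.39 with C. albicans (adjusted p = 3.3e-04) and -0.24 with PBS (adjusted p = 0.0143). Rcan1 was lower with C. albicans at -0.43 (adjusted p = 2.9e-05), and Camk1 was lower with PBS at -0.23 (adjusted p = 0.00135). Nfatc1 was higher with C. albicans at 0.52 (adjusted p = 4.4e-05) and turned in sign with PBS, at 0.04 (adjusted p = 0.690). Nfatc3 was not called with C. albicans (-0.12, adjusted p = 0.143) or with PBS (-0.03, adjusted p = 0.825), nor was Nfatc2 with PBS (-0.19, adjusted p = 0.113). Ppp3ca was called higher with C. albicans (0.18, adjusted p = 0.00217), and Camk1 (0.10, adjusted p = 0.0510) and Ppp3cb (-0.09, adjusted p = 0.308) were no longer called there. Nfat5 and Nfatc1 with C. albicans were thus called in the same direction with and without the trend, the Nfat5 values being smaller without it, while the calls of Nfatc3, of Nfatc2 with PBS and of Nfatc1 with PBS were lost. Piezo1 is itself longer than 95.1% of tested genes. Its KO over WT value was -1.06 with C. albicans and -1.03 with PBS as measured. With the length trend removed it was -0.78 (adjusted p = 1.5e-07) and -0.76 (adjusted p = 3.5e-07). What the length trend comes from was not tested.

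**Figure D3:**
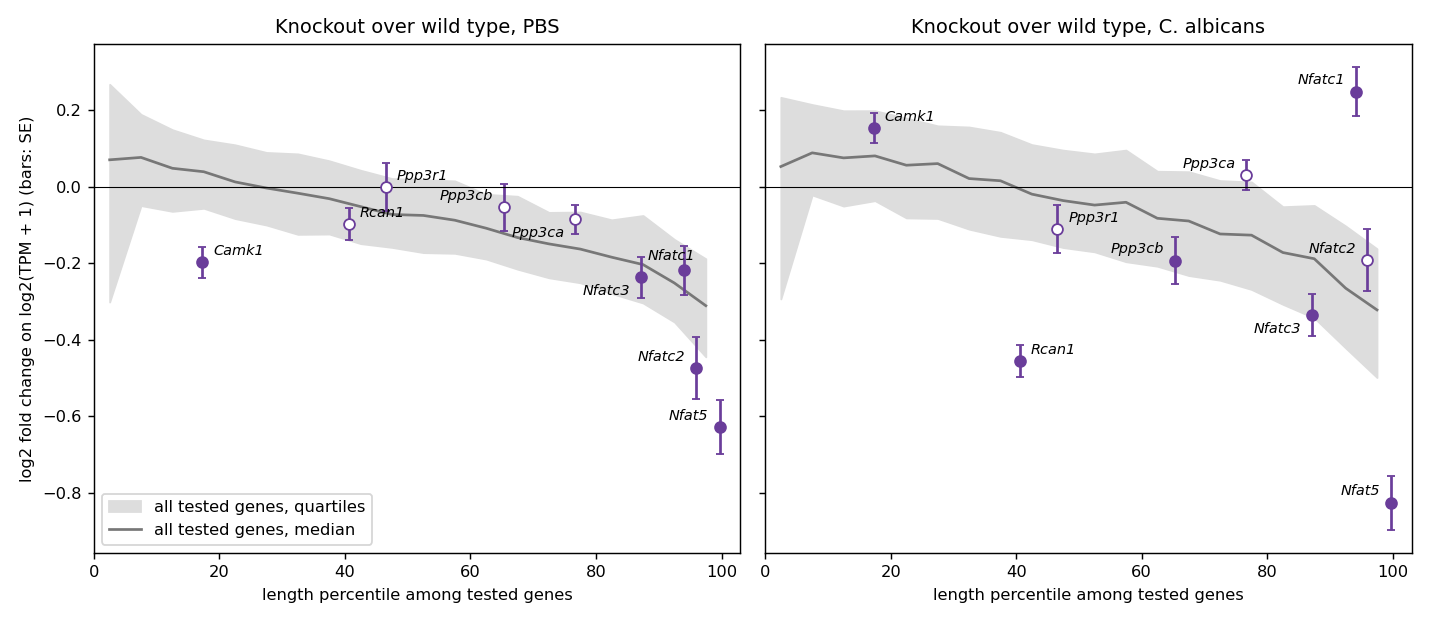
Log2 fold change of knockout over wild type (vertical axis, log2(TPM + 1) scale, bars SE) against the percentile of gene length among tested genes (horizontal axis), with PBS (left) and C. albicans (right), filled where the adjusted p was under 0.05. The grey line and band are the median and quartiles of all tested genes, which fall toward long genes, and Nfat5 lies below the band in both panels, while Nfatc1 lies above it with C. albicans.

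The summed level of the 4 NFAT genes was 47.5 ± 2.07 TPM in KO with C. albicans, 47.7 ± 0.424 in KO with PBS, 61.3 ± 1.96 in WT with C. albicans and 62.5 ± 1.57 in WT with PBS (SD, n = 3 each). The sum was thus lower in every KO library, between 46.1 and 49.9 TPM, than in every WT library, between 60.05 and 64.2 TPM, and within a genotype the treatments overlapped. All 4 genes are long, so the sum carries the length trend between genotypes, and it was not computed without that trend. With the trend removed gene by gene, only Nfat5 of the 4 was called lower in KO, and Nfatc1 was called higher with C. albicans. Shares and ratios within a library do not depend on the scaling between libraries, but they compare genes of unequal length and so carry the length trend between genotypes. Nfat5 made up 26.0% of the sum in KO with C. albicans, 21.7% in KO with PBS, 36.9% in WT with C. albicans and 26.4% in WT with PBS. Nfatc1 made up 25.7% in KO with C. albicans, 27.4% in KO with PBS, 16.5% in WT with C. albicans and 24.6% in WT with PBS. Nfatc3 kept between 33.1% and 36.5% on average.

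**Figure D4:**
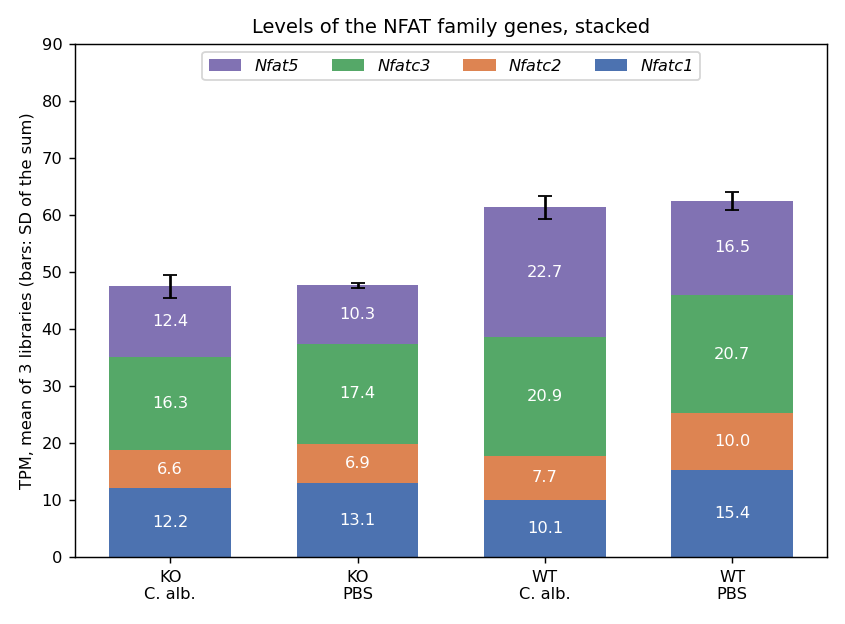
Mean level in TPM (vertical axis, from 0) of Nfatc1, Nfatc2, Nfatc3 and Nfat5, stacked, in each group of 3 libraries, with the SD of the sum. The KO stacks are lower (47.5 and 47.7 TPM) than the WT stacks (61.3 and 62.5 TPM), and the Nfat5 block is tallest in WT with C. albicans. These genes are long, and the length trend between genotypes was not removed here.

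The ratio of Nfat5 to Nfatc1 was 1.01 ± 0.0545 in KO with C. albicans and 0.792 ± 0.0480 in KO with PBS, against 2.25 ± 0.0920 in WT with C. albicans and 1.08 ± 0.0898 in WT with PBS. Rcan1 over Nfatc1 was 8.10 ± 0.545 in KO with C. albicans and 6.44 ± 0.101 in KO with PBS, against 13.5 ± 1.77 in WT with C. albicans and 5.86 ± 0.180 in WT with PBS. Rcan1 over Ppp3ca, an inhibitor against its enzyme, was 1.69 ± 0.0676 in KO with C. albicans and 1.40 ± 0.0682 in KO with PBS, against 2.38 ± 0.130 in WT with C. albicans and 1.41 ± 0.0789 in WT with PBS. All 3 ratios were highest in WT with C. albicans, where the group did not overlap the others. Removing the length trend left KO over WT with PBS at -0.04 for Rcan1 (adjusted p = 0.578) and 0.04 for Nfatc1 (adjusted p = 0.690), against -0.10 and -0.22 as measured. The ratio of Rcan1 to Nfatc1 was not computed without the trend, so the order of its PBS groups is given with the trend in it.

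Other genes of the pathway were described by lists chosen for their roles. The counts are read against all genes tested, of which 3.94% were higher and 3.14% lower in the KO response, 16.1% and 28.3% in the WT response, 12.4% and 27.5% in KO over WT with C. albicans, and 6.14% and 26.1% with PBS. With TPM, lower calls outnumbered higher ones over all genes in the last 3 comparisons, and nothing particular to a list is read from the same balance in it. With upper-quartile factors, KO over WT had more higher than lower calls over all genes. Of 15 calcineurin subunit and regulator genes 11 were tested. For the KO response 0 were higher and 1 lower, and for the WT response 2 were higher and 3 lower. The genotype comparison gave 2 higher and 2 lower with C. albicans and 2 higher and 2 lower with PBS. With median-ratio factors the genotype counts were 5 and 1 with C. albicans and 3 and 1 with PBS, the WT response gave 3 and 0, and the KO response 2 and 0. With the length trend removed the genotype counts were 2 and 1 with C. albicans and 2 and 0 with PBS. Ppp3cc, the third catalytic gene, was at 5.87 ± 0.379 TPM in KO with C. albicans, 5.26 ± 0.0900 in KO with PBS, 7.35 ± 0.303 in WT with C. albicans and 6.37 ± 0.713 in WT with PBS (SD, n = 3 each). It was lower in KO with C. albicans at -0.28 (adjusted p = 0.0142). Ppia, encoding the cyclosporin-binding cyclophilin A, rose by 0.21 in the WT response, and Cabin1, encoding a calcineurin-binding repressor, was lower in KO with PBS at -0.30 (adjusted p = 0.00997) but not with the length trend removed (adjusted p = 0.691). Ppia has near-identical copies, so its reads are uncertain.

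Of 12 calmodulin kinase genes 4 were tested, with 0 called in the KO response and 2 higher in the WT response. KO over WT gave 0 higher and 2 lower with either treatment, and with the length trend removed 0 and 1 with C. albicans and 1 and 0 with PBS. Camkk2, encoding a kinase that activates CaMKI, was at 19.4 ± 1.14 TPM in KO with C. albicans, 18.2 ± 0.975 in KO with PBS, 24.7 ± 0.629 in WT with C. albicans and 21.9 ± 0.641 in WT with PBS. It was lower in KO by -0.33 with C. albicans (adjusted p = 4.7e-04) and -0.26 with PBS (adjusted p = 0.00372), while its substrate gene Camk1 was higher in KO with C. albicans and lower with PBS. Without the length trend the difference of Camkk2 was -0.18 with C. albicans (adjusted p = 0.0491), and the PBS difference was not called (adjusted p = 0.374).

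All 10 NFAT kinase genes were tested. The counts were 1 higher and 0 lower in the KO response, 2 higher and 3 lower in the WT response, 2 higher and 5 lower for KO over WT with C. albicans, and 0 higher and 6 lower with PBS. The last count was 0 higher and 2 lower with median-ratio factors and 0 higher and 1 lower with the length trend removed. In the WT response the median-ratio factors gave 5 higher against 2 lower, the other balance. Dyrk2, which encodes an NFAT-phosphorylating kinase, was at 24.8 ± 0.105 TPM in KO with C. albicans, 19.0 ± 2.72 in KO with PBS, 48.9 ± 7.64 in WT with C. albicans and 28.5 ± 0.823 in WT with PBS. It rose with the fungus by 0.38 in KO (adjusted p = 0.0464) and 0.75 in WT (adjusted p = 9.9e-05), and was lower in KO by -0.94 with C. albicans (adjusted p = 1.9e-05). Csnk1e, encoding casein kinase 1 epsilon, fell in WT at -0.65 (adjusted p = 9.1e-06), and its response differed between genotypes by 0.43 (adjusted p = 0.0107). Gsk3b, encoding an NFAT export kinase, was lower in KO by -0.48 with C. albicans (adjusted p = 1.7e-05) and -0.36 with PBS (adjusted p = 2.9e-04). With the length trend removed these were -0.20 (adjusted p = 0.00541) and -0.09 (adjusted p = 0.200).

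Of 10 NFAT relatives and nuclear partners 8 were tested, with 0 called in the KO response and 0 higher and 4 lower in the WT response. In KO over WT 1 was lower with C. albicans and 5 were lower with PBS, and the PBS count was 2 with median-ratio factors and 0 with the length trend removed, where 3 were higher and 0 lower with C. albicans. Kpnb1, encoding importin beta, which carries NFAT and many other proteins into the nucleus, was lower in KO by -0.31 with C. albicans and by -0.33 with PBS (adjusted p = 4.5e-05 and 5.6e-05), and with the length trend removed the adjusted p were 0.0626 and 0.0534.

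Of 27 calcium entry, store and clearance genes 26 were tested. In the KO response 1 was higher and 0 lower, and in the WT response 4 were higher and 14 lower, or 8 and 10 with median-ratio factors. For KO over WT the counts were 4 higher and 12 lower with C. albicans and 0 higher and 14 lower with PBS, which became 3 and 5, and 2 and 1, with the length trend removed. With median-ratio factors they were 5 and 12, and 1 and 11. Orai2, encoding a plasma membrane calcium channel opened by store depletion, was at 73.3 ± 1.81 TPM in KO with C. albicans, 56.1 ± 1.54 in KO with PBS, 106 ± 0.727 in WT with C. albicans and 63.0 ± 3.44 in WT with PBS. It rose by 0.38 in KO (adjusted p = 8.2e-05) and by 0.75 in WT (adjusted p = 2.9e-08), a difference of -0.37 (adjusted p = 0.00164). Orai1, the founding member of that channel family, fell in WT at -0.35 (adjusted p = 1.7e-04). P2rx4, encoding an ATP-gated cation channel, was at 309 ± 1.94 TPM in KO with C. albicans, 331 ± 5.13 in KO with PBS, 264 ± 11.9 in WT with C. albicans and 371 ± 11.9 in WT with PBS, and its response differed by 0.39 (adjusted p = 3.0e-04). Atp2b1, encoding a calcium pump of the plasma membrane, was lower in KO by -0.41 with C. albicans and by -0.48 with PBS. With the length trend removed these were -0.14 (adjusted p = 0.0105) and -0.23 (adjusted p = 0.00142).

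**Figure D5:**
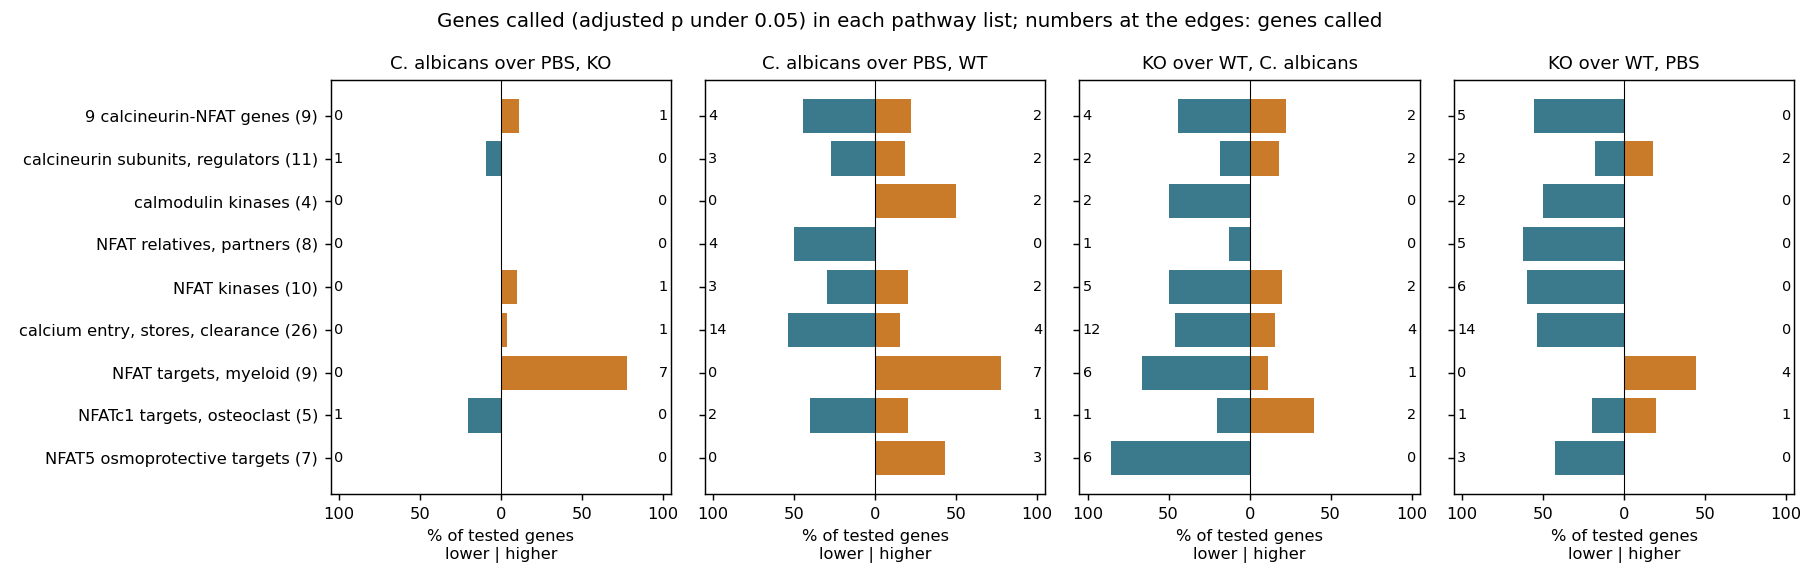
Share of tested genes called higher (orange, right) and lower (teal, left) in each pathway list (rows, tested genes in brackets) for the fungal response in KO and WT and for KO over WT with C. albicans and with PBS, with counts at the edges. Over all genes, too, KO over WT has more lower than higher calls with TPM (27.5% and 12.4% with C. albicans), a balance that turns with upper-quartile factors, and the myeloid NFAT target list has 7 of 9 genes higher in both responses. All lists were chosen with earlier results of these data known.

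The target lists came last. Of 12 known NFAT target genes of immune cells, Rcan1 among them, 9 were tested, and 7 were higher in the KO response and 7 in the WT response, with 0 lower in either. The shares of all genes called higher were 3.94% in KO and 16.1% in WT. Their median log2 fold change was 1.03 in KO, against -0.04 for all genes, and 1.66 in WT, against -0.07 for all genes. Between genotypes, 1 was higher and 6 were lower in KO with C. albicans, and 4 were higher and 0 lower with PBS. All genes gave 12.4% higher and 27.5% lower with C. albicans, and 6.14% and 26.1% with PBS. The KO minus WT difference in response was called negative for 6 of the 9 and positive for 0, against 6.33% and 7.52% of all genes. Among the 6 was Ptgs2, encoding cyclooxygenase-2, at 6.93 ± 0.610 TPM in KO with C. albicans, 1.24 ± 0.335 in KO with PBS, 18.0 ± 2.95 in WT with C. albicans and 1.12 ± 0.227 in WT with PBS. Its responses differed by -1.33 (SE 0.20, adjusted p = 8.9e-04), and those of Tnf by -0.89 (adjusted p = 2.1e-05) and of Il10 by -0.98 (adjusted p = 5.0e-04). Other pathways such as NF-kB and MAP kinases also drive these genes. The list was chosen with earlier results of these data known, so its counts are a description.

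Of 10 NFATc1 target genes of osteoclasts 5 were tested, and the cell fusion gene Dcstamp, at no more than 0.441 TPM, and Calcr, at no more than 0.0353 TPM, stayed low. Acp5, encoding tartrate-resistant acid phosphatase, was at 80.5 ± 1.68 TPM in KO with C. albicans, 98.0 ± 1.03 in KO with PBS, 50.3 ± 1.71 in WT with C. albicans and 81.0 ± 2.61 in WT with PBS. It fell with the fungus at -0.28 in KO (adjusted p = 4.4e-04) and -0.68 in WT (adjusted p = 2.5e-08), a difference of 0.40 (adjusted p = 4.5e-04). Atp6v0d2, a proton pump subunit gene, fell in WT at -0.38 (adjusted p = 4.8e-05), and its responses differed by 0.26 (adjusted p = 0.0260). The counts were 0 higher and 1 lower in the KO response, 1 higher and 2 lower in the WT response, 2 higher and 1 lower for KO over WT with C. albicans and 1 higher and 1 lower with PBS.

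Of 8 NFAT5 targets of the osmotic stress response 7 were tested. For the KO response 0 were called, for the WT response 3 were higher and 0 lower, and KO over WT gave 0 higher and 6 lower with C. albicans and 0 higher and 3 lower with PBS. With the length trend removed the counts were 0 higher and 3 lower with C. albicans and 1 higher and 1 lower with PBS. Slc38a2, encoding an amino acid transporter, was at 79.2 ± 3.93 TPM in KO with C. albicans, 75.5 ± 3.08 in KO with PBS, 108 ± 1.29 in WT with C. albicans and 75.7 ± 2.29 in WT with PBS. It rose in WT at 0.51 (adjusted p = 1.9e-06), and the responses differed by -0.44 (adjusted p = 6.4e-04). Slc6a6, the taurine transporter gene, was lower in KO by -0.31 with C. albicans (adjusted p = 7.0e-05) and by -0.39 with PBS (adjusted p = 2.6e-05), and with the length trend removed by -0.10 (adjusted p = 0.0203) and -0.18 (adjusted p = 0.00144). Slc5a3, the myo-inositol transporter gene, was lower in KO by -0.41 with C. albicans and -0.26 with PBS, but it overlaps Mrps6 in the annotation, so its reads are uncertain, and with the length trend removed it was called in neither, at -0.06 with C. albicans (adjusted p = 0.693) and 0.06 with PBS (adjusted p = 0.735). Hspa1b, an inducible Hsp70 gene with a near-identical neighbour, rose in WT at 2.55 and, without WT C. albicans replicate 1, at 3.46.

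The genes whose levels tracked a member most closely over the 12 libraries were found by Pearson correlation of log2(TPM + 1), as a description, since the libraries fall into 4 groups and share depth and scaling. For Rcan1 these were Tnip1, Fam20c and Mllt6, each at 0.992. For Nfatc1 they were Ptpn1 at 0.987, Ckap4 at 0.983 and Daglb at 0.982, and for Nfat5 Dhx15 at 0.991, Ranbp2 at 0.989 and Med13 at 0.989. Camk1 was tracked less closely, by Arrb2 at 0.938, Tbc1d4 at 0.917 and Fcgrt at 0.914. The nearest gene was Ndc1 for Nfatc2 at 0.969, Rspry1 for Nfatc3 at 0.971, Zfp810 for Ppp3ca at 0.950 and Snn for Ppp3cb at 0.955. None of these nearest genes was another of the 9.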

How the data were processed

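The 12 libraries of polyadenylated RNA were grouped by genotype and treatment label, 3 per group. The deposited TPM values of 25230 genes were made by the authors; per the submitters' processing notes the tools were CASAVA 1.8, cutadapt 2.6, STAR 2.7.5a and DESeq2 1.34.0, with build mm10, and the counter and annotation are not stated in the sources used. The authors also deposited, for WT C. albicans over WT PBS, a mean normalised signal, a log2 fold change, a Wald score, a p-value and its adjusted form. TPM gives shares of a library, so abundant transcripts can shift all others. Whole reads were recovered from TPM and the mean signal, with all 171648 nonzero values within 0.01 of a whole read, to give depth, relative gene length and an alternative fit.

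The main test was limma 3.58.1 (R 4.3.3, variance trend on) on log2(TPM + 1) for the 11283 genes that reached 1 TPM in 3 or more libraries, fitting all 12 libraries with 4 group means and without a replicate block. The p-values were adjusted by Benjamini-Hochberg over all genes within each of 5 comparisons, with 0.05 as threshold, and the fit was tested on simulated data. Alternatives changed the scaling, the pseudocount (0.1 TPM), the filter, the variance trend, the block or the libraries fitted, removed a loess trend on gene length within each library, or ran limma voom on the recovered reads. Fold changes on this scale understate changes of low genes. The 9 genes and all lists were chosen with earlier results of these data known. Text names all 9 genes, up to 3 genes per list and comparison with the smallest adjusted p, and the 3 genes that tracked a called member most closely; examples were drawn from these, 1 gene that the rule names is not reported here, and Orai1, Dcstamp and Calcr are list members. The table of symbols left 28 genes without one, with 0.00132% of reads.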

Additional observations from a re-analysis of the deposited data

Results flagged for a closer look

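The response to C. albicans in KO minus that in WT, tested as the interaction of genotype and treatment (limma on log2(TPM + 1), adjusted over all genes), passed for 3 of the 9 calcineurin and NFAT genes: Nfatc1 at 0.47, Rcan1 at -0.36 and Camk1 at 0.35 on the log2 scale. Among named genes of the other pathway lists it passed with a positive difference for Csnk1e at 0.43 (adjusted p = 0.0107), Acp5 at 0.40, P2rx4 at 0.39 and Atp6v0d2 at 0.26. It passed with a negative difference for Ptgs2 at -1.33, Il10 at -0.98, Tnf at -0.89, Slc38a2 at -0.44, Orai2 at -0.37 and Itpr3 at -0.37 (adjusted p = 0.0403). Itpr3, which encodes an inositol trisphosphate receptor of the calcium store, had 7.35 ± 0.415 TPM in KO with C. albicans and 8.71 ± 0.487 in KO with PBS, against 9.40 ± 0.612 in WT with C. albicans and 8.39 ± 0.679 in WT with PBS (SD, n = 3 each). Nfatc1, Camk1, Csnk1e, Acp5, P2rx4 and Atp6v0d2 fell in WT, and Rcan1, Orai2, Ptgs2, Il10, Tnf and Slc38a2 rose there. Groups of 3 libraries are too small for a test of single outlying values.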

How the results depend on the processing

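Over all alternatives the 9 genes gave 934 values with the same call, be it higher, lower or not called. A further 22 became called and 24 lost a call. In 1 more, Nfatc1 in KO over WT with PBS, the call was lost and the sign turned, at 0.041 with the length trend removed. Values not called in either fit count as the same call even where their sign changed. An example is Nfatc2 in KO over WT with C. albicans, at -0.19 and, with the length trend removed, 0.11. Of the other named genes 1657 values held and 131 lost a call. In 2 the call was lost and the sign turned, both with the length trend removed: Slc5a3 in KO over WT with PBS at 0.060 and Camk2d in KO over WT with C. albicans at 0.0080. For the KO response, 1 member was higher with TPM, 3 with median-ratio factors, 3 with upper-quartile factors, 3 with voom, 3 with the length trend removed, 2 with its own 6 libraries alone and 1 to 3 with a library left out. The genes called there were 799, or 1350 with its own libraries and 420 to 1487 with a library left out, the highest without WT C. albicans replicate 1. In KO over WT with PBS, 5 members were lower with TPM, 2 with median-ratio factors, 2 with upper-quartile factors, 3 with voom, 2 with the length trend removed and 4 to 6 with a library left out, and 3641 genes were called, 1815 with the length trend removed and 2760 to 4225 with a library left out. In KO over WT with C. albicans, 4 members were lower, 2 with the length trend removed and 3 to 5 with a library left out. For the difference in response, 1 member was lower, 2 with voom and 1 with any library left out, and 1563 genes were called, 1036 to 2531 with a library left out, the highest without WT C. albicans replicate 1. Causes were not tested.

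Scaling moved the balance of directions over all genes. With TPM and with median-ratio factors, the higher and lower calls were 445 and 354 against 608 and 175 (KO response), 1814 and 3192 against 2561 and 2092 (WT response), 1402 and 3101 against 2148 and 2470 (KO over WT with C. albicans), and 693 and 2948 against 1567 and 1619 (KO over WT with PBS). With upper-quartile factors they were 524 and 228, 2151 and 2564, 2823 and 2034, and 1831 and 1423, in the same order of comparisons, so KO over WT then had more higher than lower calls. Upper-quartile factors also moved the median of all genes in KO over WT with PBS to 0.02, against -0.08 with TPM. Replicate numbers were the same across groups but same-numbered libraries did not deviate together, with correlations from -0.0536 to 0.0871. Such correlations do not show whether same-numbered libraries shared an animal or a preparation, and the main fit took them as unpaired. With a replicate block all 45 results of the 9 genes kept direction and call, and the genes called were 716, 4919, 4402, 3547 and 1418 for the KO response, the WT response, KO over WT with C. albicans, KO over WT with PBS and the difference in response.

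Member reads per library ran from 475 to 3621. With 3 libraries a group, differences of the size of those of Ppp3r1 and Ppp3cb were within or near the spread between libraries.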
